A study of Mus musculus with 4 samples.

Results

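The broad RYBP domains were the regions of the merged RYBP peak list that measured 4 kb or more and overlapped no Hox gene body. They numbered 618 of 22409 merged regions, or 2.76% of the list, and held 3.90 of its 25.4 Mb, or 15.3% of the bases. A further 26 regions of at least 4 kb lay over Hox genes and were left out, from 644 regions of that width in all. Width chose the domains, so that width and the peak values of the same precipitation are given as descriptions with no test.

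RYBP occupancy was measured by ChIP-seq, in which chromatin is precipitated with an antibody and its DNA is sequenced, in wild-type mesoderm derived in culture from mouse embryonic stem (ES) cells. The labels give the strain as C57Bl/6 X Sv129, day 3.75 of embryoid body (EB) formation and an antibody against DEDAF, which is another name for RYBP, for 2 ChIP samples. Each ChIP sample had an input, chromatin with no precipitation, and these 2 input samples were not analysed here. Per the design text of the series, cells carrying the FLK1 receptor and lacking PDGFRa were isolated from separate differentiations. The design text speaks of SCL ChIP, whereas the series title and the antibody name RYBP, and the methods of the study place RYBP ChIP at day 4, and name FLK1 alone as the marker of the isolated cells, so that neither the day nor the use of PDGFRa can be settled from the sources used here. All samples were of 1 cell source and 1 condition. There was no mutant, no second stage and no sample from an embryo, and peak lists alone cannot check the sorted cell type against its marker genes.

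RYBP is a subunit of the non-canonical forms of Polycomb repressive complex 1 (PRC1), which place ubiquitin on histone H2A through their RING1 subunits. Polycomb complexes are known to sit at CpG islands, stretches of DNA dense in unmethylated CG dinucleotides (CpG) that cover many promoters. They hold many regulators of development silent in cells where those genes are not needed, and at such genes they can spread over wide blocks of chromatin, of which the Hox clusters are the best known.

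Sequences from the densest 200-bp CpG window of 5 of the 12 widest domains show what lay under them. They were read from the mm9 assembly, forward strand, with each CpG in capitals. The first 4 are domains over developmental or Polycomb genes, and the last is a domain made of repeats, shown for contrast. The Cbx8 window (chr11:118914601-118914800) lay outside protein-coding genes, 12318 bp from the Cbx8 start, and held 27 CpG. The Six3 window (chr17:86020666-86020865) overlapped an exon 7718 bp from the Six3 start and held 31 CpG. The Msx1 window (chr5:38215629-38215828) held the Msx1 start itself, overlapped its exon and had 27 CpG. The Gata2 window (chr6:88143827-88144026) likewise held the gene's start and an exon, with 34 CpG. The densest window of the Gm10719 domain (chr9:3018311-3018510), in an intron of the gene models there, held 8 CpG. GC content was 68.0%, 78.5%, 75.5% and 79.5% in the windows of the named regulators, in the order given, and 37.0% in the repeat domain.
Cbx8: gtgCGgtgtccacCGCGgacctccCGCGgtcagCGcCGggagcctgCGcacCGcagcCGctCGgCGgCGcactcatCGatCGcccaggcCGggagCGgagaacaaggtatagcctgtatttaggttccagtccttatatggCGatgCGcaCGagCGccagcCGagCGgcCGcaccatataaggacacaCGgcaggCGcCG
Six3: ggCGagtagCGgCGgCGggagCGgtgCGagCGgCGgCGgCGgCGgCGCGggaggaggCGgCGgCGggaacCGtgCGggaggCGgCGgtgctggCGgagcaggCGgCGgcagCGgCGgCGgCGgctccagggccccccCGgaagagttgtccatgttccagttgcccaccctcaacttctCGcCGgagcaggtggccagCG
Msx1: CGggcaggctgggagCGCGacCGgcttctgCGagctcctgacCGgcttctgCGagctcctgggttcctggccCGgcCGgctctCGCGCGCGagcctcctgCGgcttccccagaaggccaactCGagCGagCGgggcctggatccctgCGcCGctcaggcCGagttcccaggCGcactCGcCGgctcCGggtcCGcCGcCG
Gata2: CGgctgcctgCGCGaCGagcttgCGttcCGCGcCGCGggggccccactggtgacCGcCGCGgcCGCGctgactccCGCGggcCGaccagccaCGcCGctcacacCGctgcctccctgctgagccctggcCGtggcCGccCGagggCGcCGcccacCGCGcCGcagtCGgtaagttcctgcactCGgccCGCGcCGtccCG
Gm10719: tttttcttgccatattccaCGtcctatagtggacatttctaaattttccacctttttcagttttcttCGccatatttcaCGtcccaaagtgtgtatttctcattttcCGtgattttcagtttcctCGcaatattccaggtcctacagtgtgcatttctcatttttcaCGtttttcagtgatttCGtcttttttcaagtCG

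Domains were 5256 bp wide in the median (quartiles 4519 and 6996), against 766 bp over all merged regions. Of the 618, 233 reached 6 kb and 58 reached 10 kb. The widest, of 27284 bp, covered Cbx8, which encodes a chromodomain subunit of canonical PRC1 (chr11:118894671-118921954). It ran from 19671 bp upstream of the Cbx8 start to 7612 bp downstream and took in the whole gene. Replicate 1 called it as 1 peak of 26717 bp with a fold enrichment of 3.98, and replicate 2 as 5 peaks with a highest fold enrichment of 4.61. Fold enrichment here is the ratio of read pile-up to local background that the authors' peak caller gives each peak.

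Homeobox genes, which encode DNA-binding regulators of embryonic patterning, led most of the next widest domains. Six3, a forebrain and eye regulator, lay under 19219 bp, with a highest fold of 4.04 in replicate 1 and 5.39 in replicate 2. The domain over Msx1, which acts in limb and craniofacial development, measured 19174 bp with folds of 4.52 and 5.39. Uncx, a somite regulator, had a domain of 18423 bp with folds of 4.29 and 4.62. One domain of 17340 bp held the starts of both Hmx3 and Hmx2, inner ear regulators, with folds of 4.36 and 5.21. Lbx1, which marks migrating muscle precursors, and Dlx5, a skeletal and craniofacial gene, followed with 14966 bp and 14840 bp. All of these are genes that the homeobox list fixed for the analysis contains.

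Genes of other families, and a further homeobox gene, were also among the 12 widest. Skor1, a corepressor of the Ski family, had a domain of 17162 bp. Gata2, a zinc finger factor that blood stem cells need, lay under 16949 bp, with a highest fold of 4.20 in replicate 1 and 4.94 in replicate 2. Tbx2, a T-box repressor known from heart patterning, had a domain of 15952 bp with folds of 4.04 and 4.99. A domain of 15315 bp lay inside Lhx2, a LIM homeobox gene, beginning 5508 bp downstream of its outermost start. The remaining wide domain, 20814 bp at the start of the assembled chromosome 9, was unlike these and is described with the repeats.

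**Figure D1:**
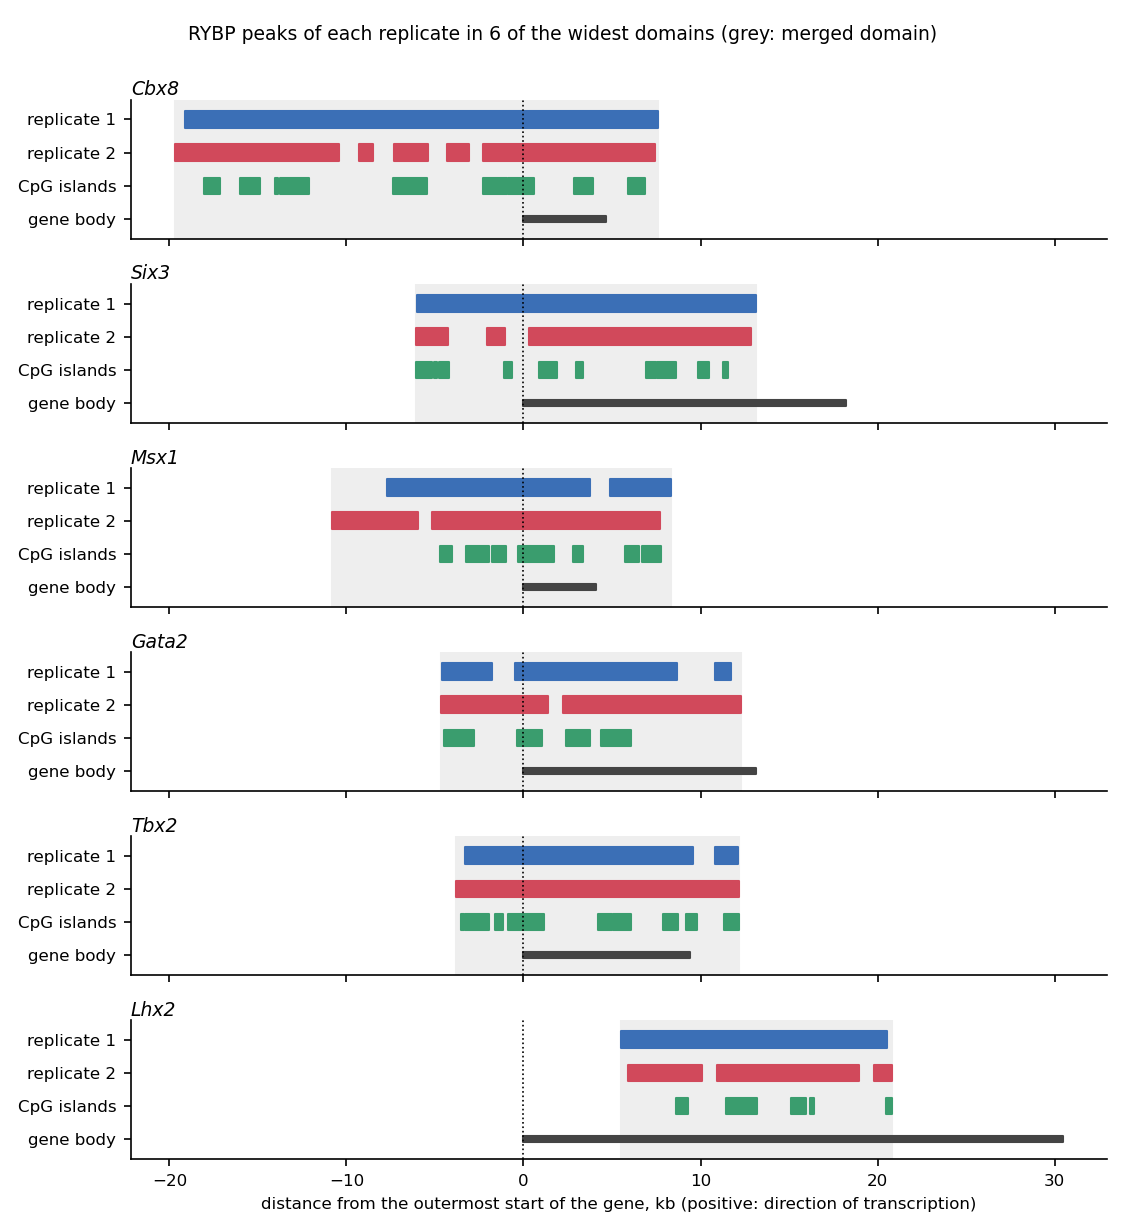
Peaks of each replicate (blue and red), CpG islands found by script inside the domain (green) and gene body (dark bar) for 6 of the widest domains, against the distance in kb from the outermost gene start, with the merged domain in grey. Replicate 1 calls the Cbx8 domain as 1 peak where replicate 2 splits it into 5, the domain in Lhx2 begins 5508 bp past the start, and islands lie at several places along each domain.

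The plot of peaks in the widest domains shows the same stretch called whole in one replicate and broken in the other. At Six3, 1 peak of 19160 bp in replicate 1 stood beside 3 peaks in replicate 2, the widest of 12562 bp. At Gata2, replicate 1 gave 3 peaks, the widest of 9151 bp, and replicate 2 gave 2 peaks, of 6030 and 10044 bp. At Tbx2, replicate 1 gave peaks of 12866 and 1325 bp, and replicate 2 a single peak over the whole domain. Neither replicate was the more broken one at all of these loci.

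All 618 domains had a peak in both replicates, against 44.2% of all merged regions and 96.8% of the 2341 regions of 2 to 4 kb outside Hox genes (2265 of 2341; exact 95% interval 95.9 to 97.4). The 2 to 4 kb regions serve as the nearest comparison throughout. A wide region has more room to meet a peak of the other list, so the share is a description. Intervals of shares and medians cover counting error over regions only. Regions are not replicates, and with 1 group of 2 samples no test between conditions or replicates was possible.

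Few peaks made up a domain, but 1 peak in each replicate was less frequent than in the 2 to 4 kb regions. In 325 of the 618 domains (52.6%; exact 95% interval 48.6 to 56.6) each replicate gave 1 peak. The share was 88.4% of the 2 to 4 kb regions and 41.85% of all merged regions, of which 44.2% had a peak in both. A wider region has more room for several peaks, so the share is a description. In 143 domains replicate 1 gave 1 peak and replicate 2 several, in 112 domains the reverse held, and in 38 both gave several. In total 786 peaks of replicate 1 and 836 of replicate 2 formed the domains, of 14794 and 18154 called. A single peak of at least 4 kb was present in replicate 1 in 396 domains, in replicate 2 in 369, in both in 240 and in neither in 93. The last group reached 4 kb only through the union of overlapping shorter peaks.

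Skor1 was built from the most peaks, 4 in replicate 1 and 3 in replicate 2. Cbx8, the repeat domain on chromosome 9, Hmx3 with Hmx2, and Dlx5 followed with 6 peaks each over both replicates. The Dlx5 domain had 3 peaks in each.

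The length called was close to equal between replicates when summed, and less so domain by domain. Replicate 1 covered 85.1% of the domain bases, replicate 2 covered 83.5%, and 68.6% were covered by both. The median domain had 69.3% of its length in peaks of both replicates (95% interval of the median 67.6 to 71.1), and the lowest had 3.62%. In 25 domains that share was under 25%. Among the 2 to 4 kb regions the median was 58.1% (56.4 to 59.5). Replicate 1 covered the longer stretch in 311 domains and replicate 2 in 307.

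Fold enrichment was moderate in the domains and higher in replicate 2. The highest peak of a domain had a median fold of 3.92 in replicate 1 (range 1.86 to 7.29) and of 4.50 in replicate 2 (range 1.41 to 8.51). Replicate 2 was higher in 547 of 618 domains (88.5%), in 80.4% of the 2 to 4 kb regions found in both and in 77.7% of all merged regions found in both. The higher level of replicate 2 was thus also present in narrower regions. The folds of the replicates ran together over the 618 domains (Spearman's rho = 0.644). The domains share their libraries and the points are not independent.

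Several loci departed from that relation. Gm13334, next to Bmi1 on chromosome 2, had a fold of 4.40 in replicate 1 and 8.51 in replicate 2. Inhbb, an activin subunit, had 4.10 and 7.11. Hand2, a heart and limb factor, had 3.69 and 6.31. A domain near the forkhead gene Foxd1 and the domain over Dll1, a Notch ligand, were the next most raised in replicate 2. Among domains higher in replicate 1, the 5 with the largest ratio were a second repeat domain on chromosome 9, Mapk11, a domain near Psd2, Pth2 and a domain near the heart regulator Nkx2-5. The last of these had 5.70 in replicate 1 and 4.60 in replicate 2.

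High fold in both replicates was seen at another set of loci. By the smaller of the replicate folds, the domain over the non-coding gene Gm12575, inside Unc45b, led with 7.29 and 7.01. Sfrp1, which encodes a secreted Wnt antagonist, followed with 6.13 and 5.99. Mn1, Zfp36l2 and Tchh completed the first 5. None of these was among the 12 widest, and the median fold of replicate 1 lay between 3.86 and 4.13 in 5 classes of width from 4 to 5 kb up to 10 kb or more.

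**Figure D2:**
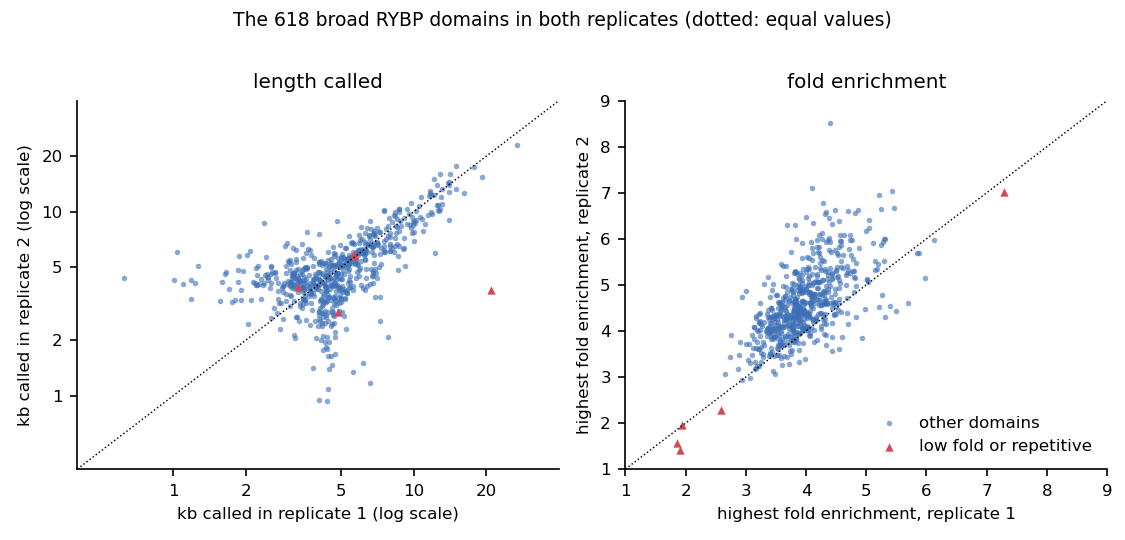
Length called (left, kb, log axes) and highest fold enrichment (right) of the 618 domains in replicate 1 (horizontal) and replicate 2 (vertical), 1 point a domain. Points lie on both sides of the dotted line of equal values at left, whereas 547 lie above it at right, and triangles mark the 5 domains of low fold or repeated sequence.

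A peak of at least 4 kb in one replicate was read in the other, which its choice had not used. Of 402 such peaks of replicate 1 outside Hox genes, all overlapped a peak of replicate 2, and 246 (61.2%; exact 95% interval 56.2 to 66.0) overlapped one of at least 4 kb. Over all replicate 1 peaks that share was 3.54%. The peaks chosen in replicate 1 had a median width of 5342 bp, and the widest overlapping peak of replicate 2 a median of 4643 bp. Of 379 such peaks of replicate 2, all overlapped a replicate 1 peak, and 250 (66.0%; 61.0 to 70.7) met one of at least 4 kb, against 3.4% of all replicate 2 peaks. Their median width was 5278 bp, and that of the replicate 1 peak over them 4958 bp. In both directions the width was smaller in the replicate that had not chosen the peak.

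The limit of 4 kb cut through a continuous run of widths. The 5 narrowest domains, among them those over Samd1, Dlgap4, Fam78a and Igsf21, measured 4002 to 4010 bp. The 5 widest regions just below the limit, over Pnmal2, Nr3c2, Sv2c, Chat and Mnx1, measured 3988 to 3992 bp. Mnx1, a motor neuron and pancreas homeobox gene, therefore fell outside by a few bases, with folds of 3.74 and 4.80.

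Of the 618 domains, 428 held the start site of a protein-coding gene (69.3%; exact 95% interval 65.4 to 72.9), against 32.5% of all merged regions and 63.0% (61.0 to 65.0) of the 2 to 4 kb regions. The start site is the outermost 5′ end of the gene in the GENCODE annotation of mm9. Per length the order was the reverse, with 1.22 protein-coding starts per 10 kb of domain, 2.56 in the 2 to 4 kb regions and 3.13 over all merged regions. Few domains held several protein-coding starts. There were 38 (6.15%; 4.39 to 8.34) with the starts of 2 or more protein-coding genes, close to the 5.64% (4.74 to 6.65) of the 2 to 4 kb regions.

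The domains with most start sites were the repeat domain on chromosome 9, with 8 gene models, and 2 domains with 3 starts each. One of these spanned Cntnap1, Plekhh3 and Ccr10 (chr11:101031228-101040121), and the other Mamdc4, Phpt1 and Gm996 (chr2:25429792-25437512). Hmx3 with Hmx2, and Irx5 with 4933436C20Rik, were the widest of those with 2. Hmx3 and Hmx2, like the Irx genes, are known as clustered homeobox genes.

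Where a domain held 1 protein-coding start, in 390 domains, it reached further into the gene than ahead of it. It extended a median of 1944 bp upstream of the start (quartiles 1248 and 3127) and 3446 bp downstream (2453 and 4791). The downstream arm was the longer one in 279 of 390 (71.5%). Arms were measured from the outermost start, so a domain around an inner transcript start counts as reaching downstream. In 86 of the 390 the domain contained the whole gene, as at Cbx8, Msx1 and Tbx2. Over all domains 114 protein-coding genes lay entirely inside one. The arms and whole genes were not counted in narrower regions, so these counts are a description of the domains. By bases, 21.3% of the domain length was exonic, 38.8% intronic and 39.9% outside protein-coding genes, against 24.8%, 38.4% and 36.8% over all merged regions.

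No protein-coding gene started in 190 domains. Of these, 36 held the start of another class of gene, 63 held an annotated inner transcript start of a protein-coding gene, and 101 held neither. Among the 101, 52 overlapped a gene body and 49 lay outside protein-coding genes. The start sites of other classes belonged to 18 lincRNA, 15 processed transcripts and 8 microRNA genes, among them Mir124a-1 and Mir124a-3, neuronal microRNAs, and Mir196a-1, which lies in a Hox cluster. The nearest protein-coding start was a median of 9234 bp away, and 96 of the 190 domains lay within 10 kb of one.

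The widest domains without the start of any gene lay inside protein-coding genes, most of them transcription factor genes. After Lhx2 came a domain of 12215 bp in Nr2f2, an orphan nuclear receptor of vein identity, with a highest fold of 3.81 in replicate 1 and 5.29 in replicate 2. Tbx15 followed with 11870 bp, Ltbp4 with 10983 bp and Nfix with 10467 bp. At Lhx2, Tbx15 and Ltbp4 an inner transcript start lay in the domain, and at Nr2f2 and Nfix none did. Domains with no protein-coding start were less dense in CpG than those with one, with medians of 3.32 and 4.61 CpG per 100 bp, and 176 of 190 still held a CpG island.

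Transcription factors of developmental families were frequent under the domains. Of 22238 protein-coding genes, 474 (2.13%) had their start in a domain and 7963 (35.8%) in a merged region of any width. Of the 453 genes of 10 listed transcription factor families, 167 did (36.9%; exact 95% interval 32.4 to 41.5), and 341 (75.3%) had a start in a merged region of any width. By domain, 165 of the 428 with a protein-coding start held a listed factor (38.6%; 33.9 to 43.4), against 109 of 1475 (7.39%; 6.11 to 8.85) of the 2 to 4 kb regions with a start. The lists were drawn up with earlier results of these data known, so that the counts are descriptions.

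Homeobox genes outside the Hox clusters gave the highest share of the larger families, 77 of 137 (56.2%; 47.5 to 64.7), led by Six3, Msx1, Uncx and Hmx2. The median width of the domains over them was 7563 bp, against 5536 bp for all genes with a start in a domain. Pax genes, paired-box factors of neural and muscle patterning, gave 5 of 9, and the widest lay over Pax7 (14779 bp), Pax6 (12746 bp), Pax2 (10832 bp) and Pax9 (10384 bp). T-box genes gave 7 of 17, with Tbx2, Tbx5 (13558 bp), Tbx1 (11967 bp) and Tbx3 (6203 bp) the widest. The intervals of the Pax share (21.2 to 86.3) and the T-box share (18.4 to 67.1) were wide and overlapped that of the homeobox genes.

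Forkhead factors gave 15 of 43 (34.9%). Foxf1a, a lateral mesoderm factor, had the widest of them with 13824 bp and folds of 4.69 and 6.59. Foxa2 (12596 bp), Foxa1 (9164 bp) and Foxc2 (8485 bp) followed. Zinc finger regulators gave 27 of 80, led by Osr2, Zfp503, Prdm16 and Hic1. Sox genes gave 6 of 18, and the widest were Sox14, Sox21, Sox2 and Sox9. Sox2, the neural and pluripotency factor, had a domain of 6133 bp with 93.9% of its length in both replicates.

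Families with lower shares still lay above the 2.13% of all genes. Basic helix-loop-helix factors gave 16 of 68, with Hand2 (13284 bp), Olig2, Hes1 and Sim2 in the widest domains. AP-2 and Ets factors gave 6 of 30, of which Tcfap2a (14237 bp), Tcfap2c, Fev and Fli1 were the widest. The AP-2 genes carry older symbols in the annotation, and the list was extended to these after the genes of the domains had been seen. Without them the counts were 2 of 25 for the family and 163 of 448 for all listed factors. No interval was computed for 2 of 25, and whether it differs from the 2.13% of all genes was not tested. Nuclear receptors gave 5 of 43, the lowest share of the 10 families at 11.6% (3.88 to 25.1), with Nr2e1, Nr2f1, Esrrg and Nr4a3 the widest.

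GATA and FOG factors gave 3 of 8, namely Gata2, Gata6 (8880 bp) and Gata4 (5608 bp). Gata4 and Gata6 act in heart and endoderm. In the Gata6 domain replicate 1 gave 3 peaks and replicate 2 gave 1, with folds of 3.90 and 4.18. A second domain of 9095 bp lay inside Gata4, with folds of 3.14 and 4.08.

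**Figure D3:**
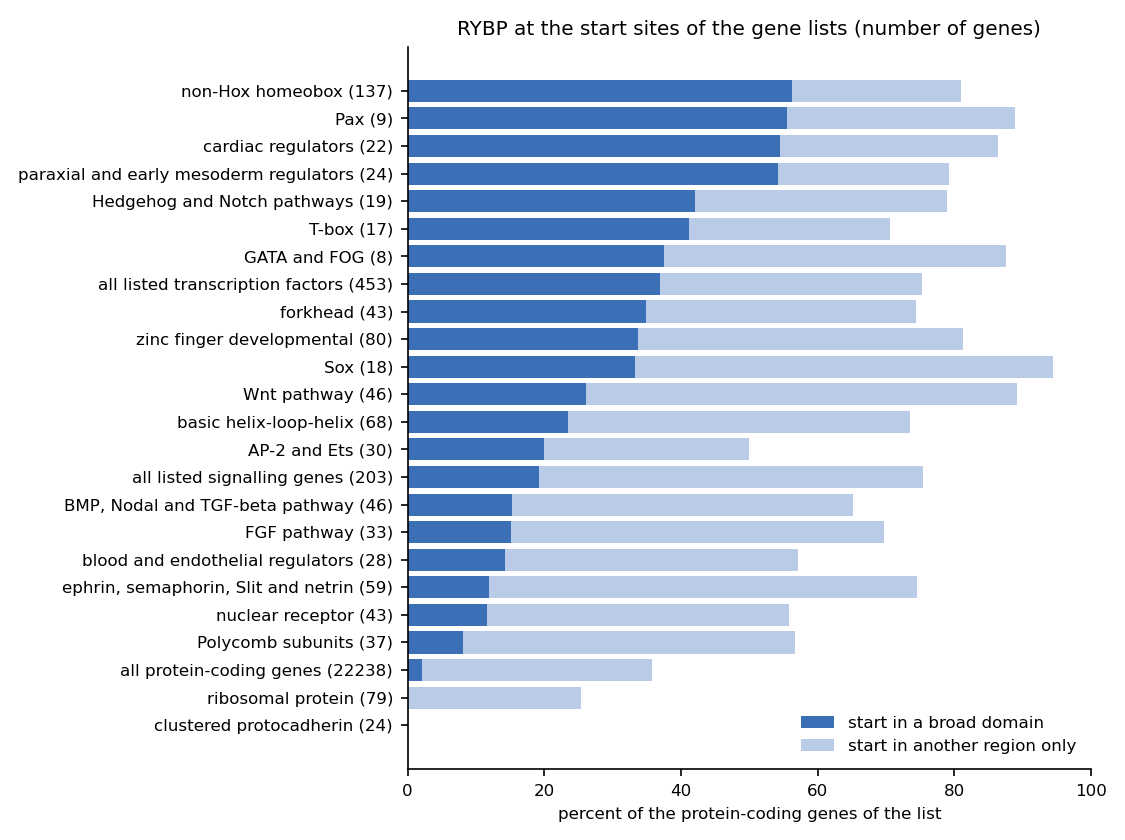
Percent of the genes of each list whose start lay in a broad domain (dark bar) or only in another merged region (light bar), with the number of genes in brackets. Non-Hox homeobox genes reach 56.2% in broad domains, all protein-coding genes 2.13%, and ribosomal protein genes 0%.

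Regulators of the mesodermal lineages that the study discusses differed in count. Of 22 cardiac regulators, 12 had their start in a domain (54.5%; exact 95% interval 32.2 to 75.6), including Tbx5, Hand2, Tbx1, Pdgfra, Gata6, Nkx2-5 and Isl1. Of 24 paraxial and early mesoderm regulators, 13 did (54.2%; 32.8 to 74.4), led by Lhx1 (10950 bp), Irx3 (10628 bp), Pax9 and Six2 (9649 bp). Of 28 blood and endothelial regulators, 4 did (14.3%; 4.03 to 32.7), among them Gata2, Fli1 (6029 bp) and Sox7 (4348 bp). In any merged region the counts were 19 of 22, 19 of 24 and 16 of 28, beside 35.8% of all protein-coding genes. The lists overlap with the transcription factor families, and the difference between lineages was not tested.

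Single members show the values behind these counts. Nkx2-5, an early heart homeobox gene, had a domain of 8143 bp with folds of 4.41 in replicate 1 and 5.71 in replicate 2. T, or Brachyury, which marks nascent mesoderm, had one of 4237 bp. Pdgfra, the gene of the receptor that the design text gives as absent from the isolated cells, had one of 9034 bp with folds of 4.03 and 4.01. Isl1, a second heart field factor, had one of 4362 bp with folds of 4.67 and 4.99, of which 40.9% was covered by both replicates.

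Signalling genes had a lower share under domains than the listed transcription factors, 39 of 203 (19.2%; 14.0 to 25.3). In some merged region 75.4% of them started, beside 35.8% of all protein-coding genes. Hedgehog and Notch genes gave 8 of 19, of which Lfng, a Notch modifier, had the widest domain (7369 bp), followed by the ligands Shh (6548 bp), Dll4 (6243 bp) and Dhh (5905 bp). Wnt genes gave 12 of 46, led by Wnt6 (5741 bp), Sfrp1 (5016 bp), Wnt10a (5009 bp) and Wnt1 (4944 bp). No domain over the start of a listed Wnt gene reached 6 kb, while domains of 8643 and 9102 bp lay inside Wnt6 and Wnt10a, apart from those at their starts.

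BMP, Nodal and TGF-beta genes gave 7 of 46, led by Inhbb (6650 bp), Bmp7 (6504 bp), Gdf7 (6494 bp) and Bmp4 (5806 bp), and FGF genes gave 5 of 33, led by Fgf9 (6963 bp), Fgf11 (6632 bp), Fgf3 (6215 bp) and Fgfr3 (4277 bp). Guidance genes gave 7 of 59, with Ntn3, Robo3, Sema6b and Efna1 the widest. Most of these encode secreted ligands or their receptors. Ribosomal protein genes, which nearly every cell expresses, gave 0 of 79 (exact 95% interval 0 to 4.56) although 20 of them (25.3%) started in a merged region. Clustered protocadherins, neuronal adhesion genes, gave 0 of 24 (0 to 14.2), and none started in any merged region. The body of 1 of them overlapped a domain. Both intervals hold the 2.13% of all genes, so neither list can be told apart from that share.

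Polycomb genes themselves gave 3 of 37 (8.11%, exact interval 1.70 to 21.9). That interval holds the 2.13% of all protein-coding genes, so this list cannot be told apart from that share either. The 3 genes included Cbx8 and Bmi1, which encodes PCGF4. The Bmi1 domain (chr2:18597032-18604274) measured 7243 bp with folds of 4.10 and 5.81, and 47.2% of it was covered by both replicates.

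Bcor, whose product joins RYBP in the non-canonical complex PRC1.1, had 4 domains in its body on the X chromosome. It was picked out after its values had been seen. They measured 4628, 5187, 5332 and 5596 bp, with folds from 3.75 to 4.06 in replicate 1 and from 4.30 to 5.02 in replicate 2, and none held the outermost start. The fifth domain of the X chromosome lay in Mid1 and was of repeated sequence. With 5 domains for 927 protein-coding genes, the X chromosome had 5.39 domains per 1000 genes, whereas the autosomes ranged from 14.9 to 53.0. Of its merged regions, 2.03% were domains, inside the range of the autosomes (1.76 to 3.64%).

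The share of domains with a listed transcription factor start was higher in the wider classes. It was 14.2% (10.2 to 19.0) of 261 domains of 4 to 5 kb, 19.4% (12.8 to 27.4) of 124 domains of 5 to 6 kb and 35.4% (27.2 to 44.2) of 130 domains of 6 to 8 kb. It then reached 46.7% (31.7 to 62.1) of 45 domains of 8 to 10 kb and 63.8% (50.1 to 76.0) of 58 domains of 10 kb or more. Wider domains also held a protein-coding start more often, from 65.5% in the narrowest class to 84.5% in the widest. Among domains with a start, the share with a listed factor still went from 21.6% to 75.5%. Wide domains were also called more alike, with a median of 63.5% of the length in both replicates at 4 to 5 kb and 78.9% at 10 kb or more.

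**Figure D4:**
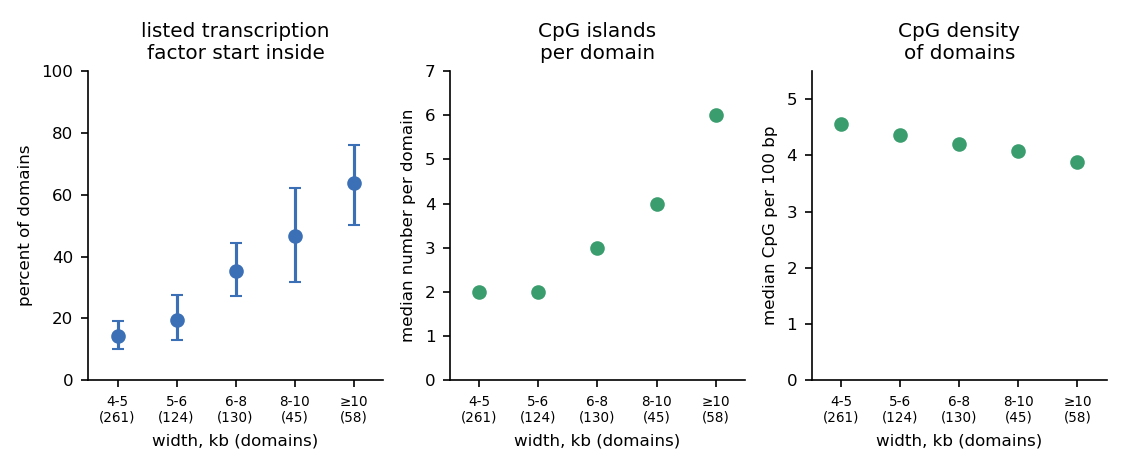
Share of domains with the start of a listed transcription factor (left, percent with exact 95% intervals), median number of CpG islands per domain (middle) and median CpG density (right) in 5 classes of domain width in kb, with the number of domains in brackets. The share goes from 14.2% to 63.8% and the islands from 2 to 6, while CpG density goes from 4.56 to 3.89 per 100 bp.

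By sequence, domains were rich in CpG but less so than the regions of 2 to 4 kb. The median of the domains was 4.29 CpG per 100 bp (95% interval 4.16 to 4.40), against 5.09 (4.98 to 5.18) in the 2 to 4 kb regions. It was 4.085 (4.035 to 4.155) over all merged regions and 3.06 (2.55 to 3.46) in the Hox regions of 4 kb or more. In the flanks, 20 kb to either side of the domains, it was 1.18 (1.14 to 1.24). The domain was denser than its own flanks in 602 of 618, a count not made for other regions. Flanks of the 2 to 4 kb regions had a median of 1.16 and those of all merged regions 1.11. The contrast with flanks was thus also present outside the domains. CpG islands were found here as 200-bp windows with at least 50% GC and an observed to expected CpG ratio of at least 0.6. They were present in 601 domains (97.2%), in 92.3% of the 2 to 4 kb regions and in 55.5% of all merged regions. More than 1 island was present in 455 (73.6%; 70.0 to 77.1), against 26.7% (24.9 to 28.5) of the 2 to 4 kb regions.

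Islands did not fill the domains. They took 43.0% of the domain bases. The median number of islands went from 2 in domains of 4 to 5 kb to 6 in those of 10 kb or more. CpG density went the other way, from 4.56 to 3.89 per 100 bp, as the plot by width class shows. A wider region has more room for islands, so that their number is a description of the domains and no measure apart from width.

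Within domains, the bases called in both replicates were the ones dense in CpG. They held 5.25 CpG per 100 bp, those called in replicate 1 alone 1.96 and those called in replicate 2 alone 2.35. Islands took 56.5% of the first, 11.1% of the second and 15.7% of the last. Conversely, 90.3% of the island bases were called in both replicates, against 52.3% of the other bases. In 577 of the 600 domains with at least 200 bp of either kind, the bases called in both were the denser ones. Distance from the domain ends was not separated from CpG density, and its part in the difference was not tested.

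**Figure D5:**
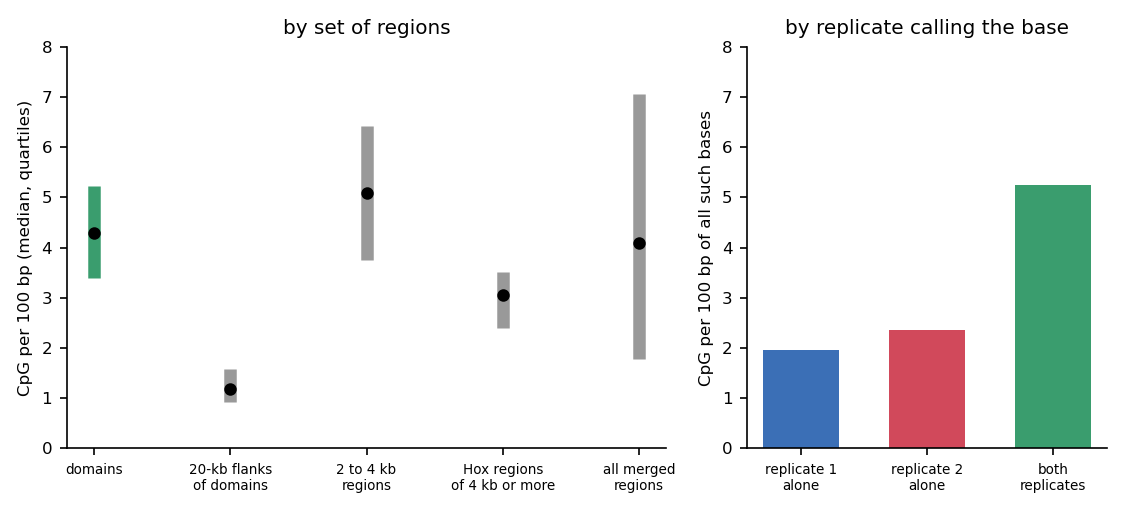
CpG per 100 bp as medians with quartiles over sets of regions (left) and over all domain bases by the replicate that called them (right). Domains have a median of 4.29 and their flanks 1.18, and bases called in both replicates hold 5.25 against 1.96 and 2.35 in bases called in 1.

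A few domains were poor in CpG. Under 1.5 CpG per 100 bp were found in 7. They were domains near Vax2, Lhx1 and Pax3, which are homeobox or paired-box genes, and in Runx3, a Runt factor, Mid1, Accn4 and Gm20388. Most were called unlike in the replicates. The share of length in both was 9.02% near Vax2, 14.4% near Lhx1, 17.7% in Runx3 and 3.62% in Gm20388. It was 44.0% in Accn4, 56.3% in Mid1 and 62.4% near Pax3. The domain near Vax2 had 1.01 CpG per 100 bp with folds of 3.89 and 3.33, and held no island. The one near Pax3 (6141 bp) had 1.45, with folds of 3.15 and 3.17. They lay 11252 bp from the Vax2 start, 77270 bp from the Lhx1 start and 10853 bp from the Pax3 start. They were picked out by their CpG values.

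Some domains stood in rows. Within 50 kb of each other, 237 of the 618 formed 100 groups, and the other 381 stood alone. The same count was not made for narrower regions, so the grouping is a description of the domains. The largest groups had 6 domains. One ran from Wnt6 over Wnt10a and Cdk5r2 to Fev in 117758 bp of chromosome 1, with 40367 bp in domains. The other lay in and around Nfix, a nuclear factor I gene of brain and muscle, in 99192 bp of chromosome 8, with 39396 bp in domains. Groups of 4 lay at Pax6, at Bcor, at Apc2 with Plk5, at Espn with Hes2, and beside the Hoxb genes. Tbx3, Tbx5, Pax3, En2, Pou3f2, Nr2f2 and Zic1 with Zic4 were each flanked by further domains in groups of 3.

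The Hox rule left some neighbours in. Within 50 kb of a Hox gene body lay 7 domains, 3 of them within 5 kb. They were Gm11538, Mir196a-1, Gm11535 and a domain in Gm53 beside Hoxb, Gm16258 beside Hoxc, Evx2 (7726 bp) beside Hoxd and Evx1 (9159 bp) beside Hoxa. Evx1 and Evx2 are homeobox genes at the ends of Hox clusters. Their folds, 4.16 and 5.09 at Evx1 and 4.19 and 4.68 at Evx2, lay inside the range of the other domains. The Hox regions of 4 kb or more were wider than the domains, with a median of 10522 bp, and had median folds of 3.92 and 4.50, close to the 3.92 and 4.50 of the domains.

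Domains of low fold or repeated sequence stood apart. They were taken as those with a highest fold under 2.5 in either replicate or more than 20% of their 30-base words repeated inside the domain, limits set after the values had been seen. There were 5. The chromosome 9 domain of 20814 bp (chr9:3017388-3038201) had folds of 1.86 and 1.57, and 88.4% of its words were repeated. It was 1 peak of the full width in replicate 1 and 5 peaks, the widest of 1583 bp, in replicate 2. Its 8 gene models were Gm10719 and 7 others, and no island lay in it. Reads may not be placed with certainty in such repeats. That, and how alike the gene models are, was not tested.

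The other 4 were of several kinds. A second chromosome 9 domain, over Gm10722 and Gm11168, had folds of 1.90 and 1.41 and 73.9% repeated words. A domain on chromosome 17, 359825 bp from the nearest protein-coding start, that of Pgk2, had folds of 1.93 and 1.95, 10.2 CpG per 100 bp and 0% repeated words. Words were compared inside each domain only, so copies elsewhere in the genome would not be seen. The Mid1 domain had folds of 2.59 and 2.28 and 57.8% repeated words. Gm12575 in Unc45b, by contrast, had 29.0% repeated words with the high folds given above. Without these 5, 613 domains remained, of which 69.5% held a protein-coding start.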

How the data were processed

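RYBP ChIP was measured in 2 samples, replicates 1 and 2 by their labels. Per the methods of the study, chromatin was fixed with EGS (ethylene glycol bis succinimidylsuccinate) before formaldehyde, paired-end reads were aligned to mm9 with Bowtie (1.1.2b), duplicates were removed and broad peaks were called in each replicate with MACS2 (2.0.10). The control used in peak calling is not given in the sources used here. For each peak the authors deposited a fold enrichment (a linear ratio), −log10 of the p-value and q-value, and a score of 10 times the −log10 q rounded down. The authors also deposited a merged list of positions with no values. It was identical to a union of both replicate lists with replicate 2 starts moved by 1 bp, in all 22409 regions, so that a replicate 2 peak can exceed its domain by 1 bp. The peak lists carry no read depth. By the read totals that the study states, replicate 1 was sequenced more deeply than replicate 2, no total entered a calculation, and the part of depth in differences of fold or width between replicates was not tested. A broad call joins neighbouring enriched stretches, so that width depends on the caller and on depth.

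Domains, genes and CpG were computed from the deposited positions with Python 3.11.15, numpy 2.4.6, pandas 2.3.3 and scipy 1.17.1, the mm9 genome and its GENCODE annotation. Overlap meant at least 1 bp. Intervals of shares are exact binomial (Clopper-Pearson, 95%), and those of medians rest on order statistics. Overlap, island and interval code was tested on simulated data and against bedtools 2.31.1. The members and gene lists were chosen with earlier results of these data known. Named were the 12 widest domains, the 5 at either side of the limit, the 5 with most starts, with most peaks and without any start, the 5 with the largest fold ratio and with the largest smaller fold, and 4 members of each list, by the width of their domains. No domain was found in 1 replicate alone. Windows printed, islands, repeated words, start position, width classes and groups were chosen after the files had been read. Alternatives were width limits of 3000 and 5000 bp, each replicate alone, stricter peaks (−log10 q of at least 2 or fold of at least 3), gaps of 1 kb joined, other Hox margins and other definitions of a start. Results for a few genes and 1 sequence are not reported here.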

Additional observations from a re-analysis of the deposited data

How the results depend on the processing

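No paired analysis was possible because the ChIP samples form 1 group and no result comes from a test between groups. Of 68 values under other settings, 47 stayed within 1.5 times a count or within the interval of a share or median, and 21 did not. The 47 include values that could not move, because keeping only domains with a peak in both replicates kept all 618. No direction reversed. The number of domains, 618, was 1275 at 3000 bp and 357 at 5000 bp, and 379 to 402 from 1 replicate alone. At 3000 bp, 98.9% had a peak in both replicates, the median share of length in both was 65.8%, the share with a listed factor 16.8% and the median CpG density 4.47 per 100 bp. At 5000 bp the length in both was 72.5% and the share with a listed factor 35.9%. These follow from the change in members. Asking for 50% of the domain in each replicate left 89.2%. A protein-coding start was held by 75.1% with starts of any class, by 73.0% within 2.5 kb and by 79.5% with every transcript start, and 2 or more starts by 18.9% with any class. The share with a listed factor, 26.7%, was 30.6 to 33.1% from 1 replicate alone (the cause was not tested) and 33.5% by gene body. The densest 1 kb held 9.10 CpG per 100 bp. With summed widths, 69.7% of the wide replicate 1 peaks and 71.2% of those of replicate 2 met 4 kb in the other. Leaving out the low-fold and repetitive domains, or the older AP-2 symbols, both chosen after seeing the data, moved no value beyond these limits. A test on fold or width between conditions was beyond a design of 1 group.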
